A study of Homo sapiens with 11 samples.

Results

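The ATF4 program and amino acid response was followed here as 43 genes out of the 57773 genes listed in the expression table, each found once by its gene symbol. They are listed as genes of that program and were chosen by their values in the untransduced (Parental) HCC78 cells. There, library replicate 2 was set against replicate 1 and against the other libraries. The members comprise 3 sensor and feedback genes, 7 transcription factors, 4 signalling and stress effectors, 6 enzymes of serine, glycine and one-carbon metabolism, 4 other amino acid enzymes, 6 amino acid transporters, 10 genes of tRNA charging and export, and 3 genes of secreted proteins and a receptor.

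ATF4 is a transcription factor whose mRNA is translated more efficiently when the initiation factor eIF2 is phosphorylated. That phosphorylation is made by kinases that sense uncharged tRNA (GCN2, encoded by EIF2AK4), unfolded protein in the endoplasmic reticulum (PERK, encoded by EIF2AK3), double-stranded RNA or lack of heme, and the pathway is called the integrated stress response. ATF4 partners with C/EBP proteins at response elements of genes that make, import and charge amino acids, and with prolonged stress it raises DDIT3 (CHOP), TRIB3 and CHAC1, a glutathione-degrading enzyme.

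HCC78 is a lung adenocarcinoma cell line that carries an endogenous U2AF1 S34F mutation, in a factor that recognizes 3′ splice sites, and an SLC34A2-ROS1 fusion. Lines had been made from it with a tet-inducible lentiviral vector for FLAG- and 6xHA-tagged U2AF1, either wild-type (WT) or S34F, as stable subclones. RNA was sequenced from the WT line with doxycycline (WT dox+, n = 2) and without it (WT dox-, n = 2), from the S34F line with doxycycline (S34F dox+, n = 2) and without it (S34F dox-, 1 library, numbered replicate 2), and from Parental cells labelled as without doxycycline (n = 2). A column heading used by the study names the Parental libraries as with doxycycline instead. The labels were followed here, and the comparisons of Parental with dox+ or dox- libraries are limited by that conflict. Every group thus carried the endogenous S34F allele, doxycycline and transgene induction changed together and cannot be told apart, and each construct stood in its own line. The sources used here do not say that replicates came from separate cultures, so p-values measure only the spread between these libraries.

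U2AF1 was at 164 to 299 FPKM (read fragments scaled to transcript length and library size) in the 4 dox+ libraries and at 103 to 115 FPKM in the other 5, and by the labels the share of U2AF1 mRNA that was S34F came to 62% and 65% in S34F dox+, 12% and 14% in WT dox+ and 28% to 33% elsewhere. Between 13661 and 17716 genes reached 1 FPKM in 8 libraries and 20896 in S34F dox+ replicate 2, and the 4 dox+ libraries all had more such genes than the other 5. Epithelial markers (EPCAM, CDH1 and 3 keratins) were expressed in every library, with summed levels of 4924 to 7224 FPKM. No library depth was given with these values, so no counting interval can be attached to them.

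A short sequence recurred in the promoters of some members, shown first because it is the element through which ATF4 and C/EBP proteins are known to act. RefSeq promoters (GRCh38.p14, 250 bases before to 50 after each transcription start, 300 bases in all) were matched for 36 of the 43 members, with 55 starts. No entry was matched for PSPH, SHMT2, ALDH1L2, PYCR1, SLC7A11, NUPR1 and YARS. The consensus TGATGNAAN (N, any base), searched on both strands with no second motif, was present in at least 1 promoter of 13 of the 36 members (36.1%), against 1215 of all 27305 genes with an entry (4.45%). Because the members were listed as genes of the ATF4 program, a higher share can follow from how the list was made, and it is no test. Of genes outside the members, 5 of 13 other ATF4 targets (38.5%) and 2 of 8 other cytosolic aminoacyl-tRNA synthetase genes (25%) held it, so the share was not particular to the members. Counted by start, 13 of 55 member promoters (23.6%) and 3.61% of all 35116 promoters held it. ASNS, the asparagine synthetase gene, and CHAC1 are printed whole because they showed the largest differences between the Parental libraries on the log2(FPKM + 1) scale. The sequences run 5′ to 3′ on the strand of the gene, with the letters that match the consensus in capitals (its reverse complement where the match lies on the opposite strand).
ASNS promoter, chr7:97872359-97872658, minus strand: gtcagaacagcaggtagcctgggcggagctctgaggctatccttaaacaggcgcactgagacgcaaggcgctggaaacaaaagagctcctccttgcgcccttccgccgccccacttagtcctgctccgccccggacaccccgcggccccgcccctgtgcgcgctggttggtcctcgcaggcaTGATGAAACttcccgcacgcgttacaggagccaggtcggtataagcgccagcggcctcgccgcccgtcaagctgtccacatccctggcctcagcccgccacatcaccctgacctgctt
CHAC1 promoter, chr15:40953221-40953520, plus strand: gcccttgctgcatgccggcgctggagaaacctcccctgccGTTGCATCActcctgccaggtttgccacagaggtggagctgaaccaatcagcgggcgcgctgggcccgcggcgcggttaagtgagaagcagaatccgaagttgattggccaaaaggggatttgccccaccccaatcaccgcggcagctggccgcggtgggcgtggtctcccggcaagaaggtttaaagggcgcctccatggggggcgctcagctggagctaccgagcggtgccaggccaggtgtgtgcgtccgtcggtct
In ASNS the match began 68 bases upstream of the start and read along the gene, and in CHAC1 it began 210 bases upstream and read on the opposite strand.

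The other 11 matches are shown with up to 10 bases on either side, to compare their letters.
ATF3, chr1:212565206-212565234, gene on the plus strand: aaggtcaggaTGATGGAAGgctgtcatat
CEBPG, chr19:33374061-33374089, gene on the plus strand: gcgcggcgtcTGATGCAACctgccggcaa
SLC7A1, chr13:29595663-29595691, gene on the minus strand: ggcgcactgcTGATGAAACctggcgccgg
SLC3A2, chr11:62881725-62881748, gene on the plus strand: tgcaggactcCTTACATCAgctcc
SLC1A5, chr19:46784893-46784921, gene on the minus strand: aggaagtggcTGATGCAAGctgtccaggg
SLC1A4, chr2:64989381-64989409, gene on the plus strand: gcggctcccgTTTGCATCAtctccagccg
GARS, chr7:30594834-30594862, gene on the plus strand: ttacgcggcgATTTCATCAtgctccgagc
AARS, chr16:70289676-70289704, gene on the minus strand: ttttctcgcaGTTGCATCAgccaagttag
MARS, chr12:57488053-57488081, gene on the plus strand: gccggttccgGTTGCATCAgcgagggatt
NARS, chr18:57621804-57621832, gene on the minus strand: ctacgctctcTGATGCAACgccggaatcg
CARS, chr11:3057408-3057436, gene on the minus strand: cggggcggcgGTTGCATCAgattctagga
By role, 4 of 5 transporters with a promoter entry, 5 of 9 tRNA charging and export genes and 2 of 6 transcription factors held a match, whereas none of the 3 serine and one-carbon enzymes, the 3 sensor and feedback genes or the 3 genes of secreted proteins and receptors did. The 13 members with a match had a median log2 difference of 0.84 between the Parental libraries, described next, and the 23 without one had 0.77. A match is a run of letters and does not show that a factor was bound.

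In the Parental cells the program stood at different levels in the 2 libraries. Of the 43 members, 40 were higher in Parental replicate 2 than in replicate 1, with a median difference of 0.82 on the log2(FPKM + 1) scale (a 1.77-fold ratio), and 3 were lower. The difference was at least 2-fold upward for 14 members and downward for 0. The 3 marker genes of the program, ASNS, TRIB3 and CHAC1, were among the 14. Because this contrast chose the members, these values describe them and carry no test. Over the 15179 genes that averaged 1 FPKM or more across the 9 libraries, 2.37% were at least 2-fold higher in replicate 2, 2.34% at least 2-fold lower, and the median difference was 0. Set against the median of the other 8 libraries in place of Parental replicate 1, 9 members in place of 14 were at least 2-fold higher in Parental replicate 2 (1.48% of all genes), and 8 against the median of the 7 transduced libraries (1.55% of all genes). At 1.5-fold against Parental replicate 1 there were 28 members (7.1% of all genes). Of the members, 41 reached that mean, and CHAC1 did so only through Parental replicate 2.

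Parental replicate 2 was the highest of the 9 libraries for 31 of 43 members (9.88% of all genes), and Parental replicate 1 was the lowest for 20 (11.2% of all genes). Both held for 15 members, for which all 7 transduced libraries lay between the Parental ones, as did 0.758% of all genes. The member levels in Parental replicate 2 were a median of 1.54-fold above the median of the 7 transduced libraries, and that median was itself 1.21-fold above Parental replicate 1. The members were closer in the other replicate pairs. The median member difference between replicates 2 and 1 was 0.00 (log2) in WT dox+, 0.11 in WT dox- and 0.08 in S34F dox+, and across those 3 pairs only 1 member, EIF2AK3 in S34F dox+, differed by 2-fold or more (1.02 lower in replicate 2 on the log2 scale). Over all genes, 4.57% were at least 2-fold apart in either direction in WT dox+, 4.52% in WT dox- and 8.25% in S34F dox+, beside 4.71% in Parental cells.

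**Figure D1:**
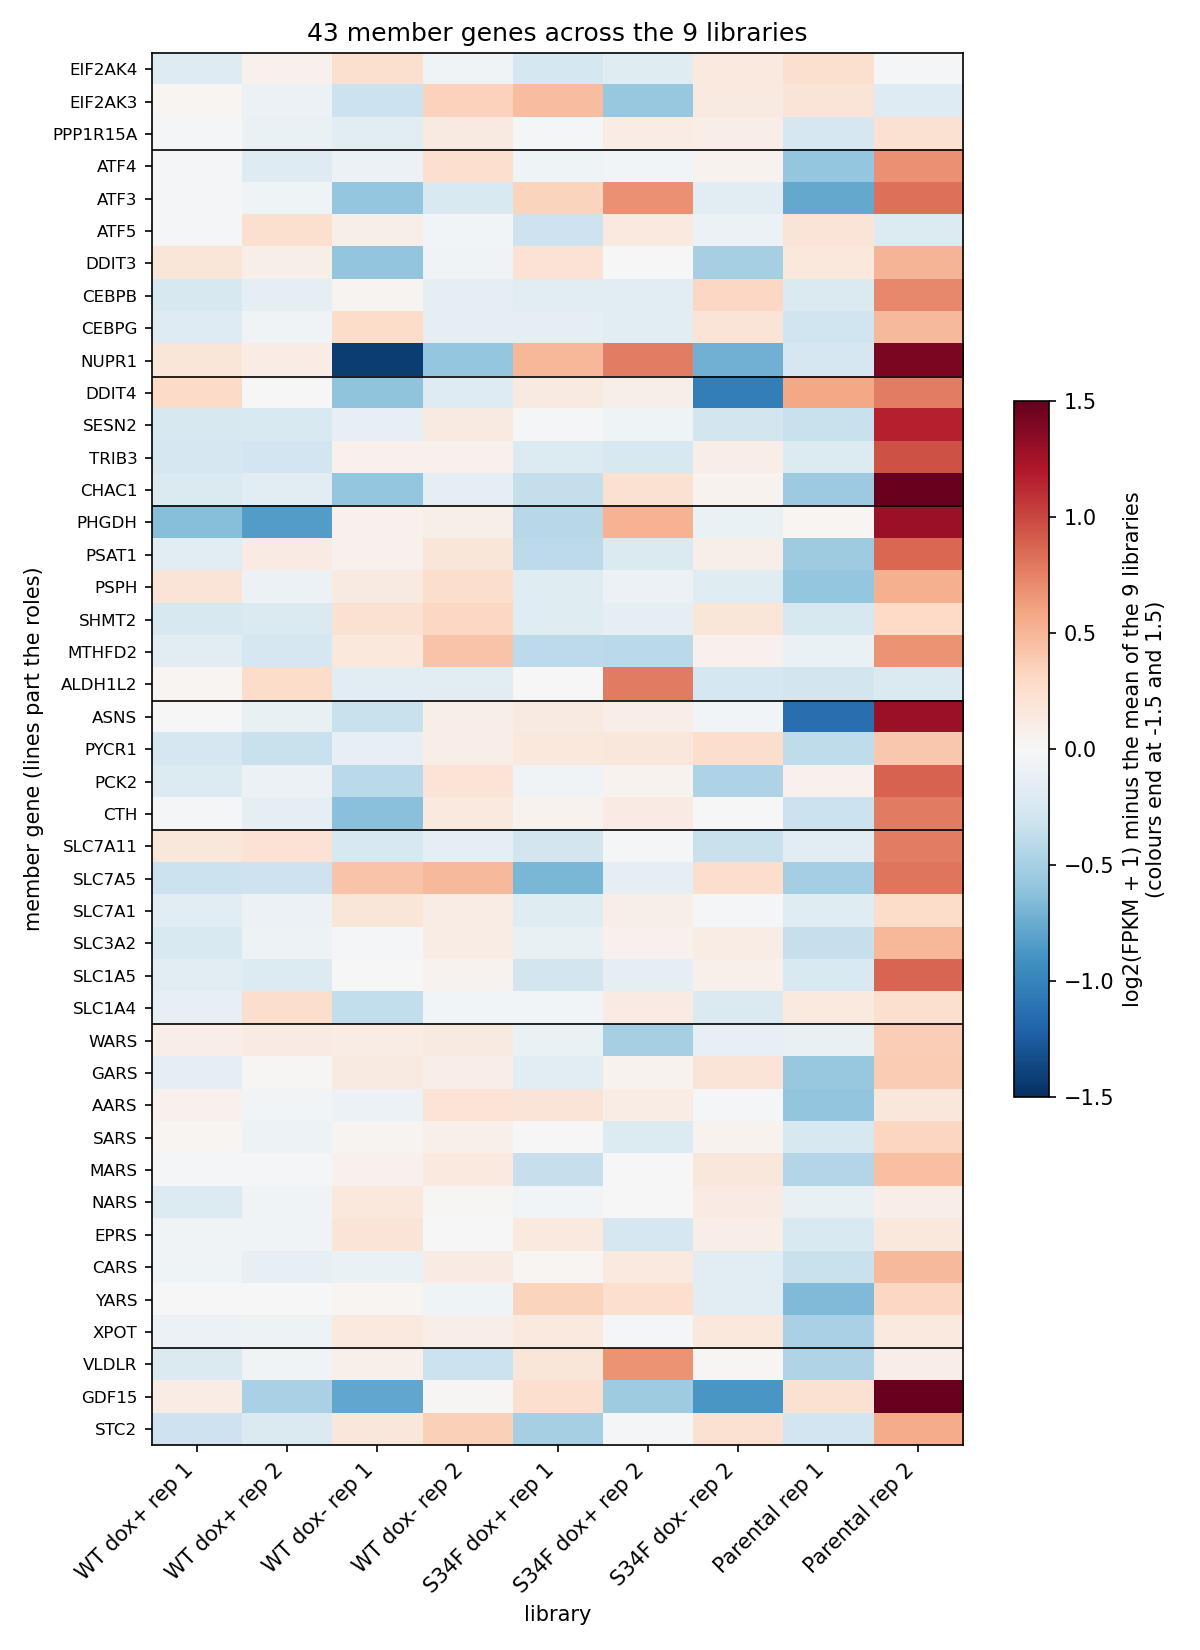
Level of each of the 43 members (rows, grouped by role) in each of the 9 libraries (columns), as log2(FPKM + 1) minus the mean of the gene over the libraries; red is above and blue below that mean, and colours end at -1.5 and 1.5. The column of Parental replicate 2 is red for most members and that of Parental replicate 1 is blue for many, with 31 members highest in the former and 20 lowest in the latter.

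Both sensor kinase genes were lower in Parental replicate 2. EIF2AK4, which encodes GCN2, was at 46.85 and 39.2 FPKM in Parental replicates 1 and 2 and at 32.9 to 47.1 FPKM in the transduced libraries. EIF2AK3, which encodes PERK, was at 18.5 and 13.9 FPKM, within its transduced range of 10.6 to 22.55 FPKM. PPP1R15A (GADD34), which brings a phosphatase to eIF2, was at 36.7 and 51.3 FPKM, which were its lowest and highest values of the 9 libraries.

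Among the transcription factors, ATF4 itself was at 110.3 FPKM in Parental replicate 1 and 267 in replicate 2. In the transduced libraries ATF4 was at 155 and 198 FPKM in WT dox-, 163 and 145 in WT dox+, 171 in S34F dox- and 158 and 161 in S34F dox+. The Parental values of ATF4 thus enclosed all others. ATF3, a stress-induced partner and target, was at 1.83 and 7.55 FPKM in Parental cells, 2.23 and 3.10 in WT dox-, 3.75 and 3.61 in WT dox+, 3.27 in S34F dox- and 5.06 and 6.77 in S34F dox+. NUPR1, a small stress-induced chromatin protein gene, was at 8.50 and 29.15 FPKM in Parental cells, 3.19 and 6.56 in WT dox-, 11.8 and 11.2 in WT dox+, 5.85 in S34F dox- and 15.0 and 18.1 in S34F dox+. For NUPR1 the replicate 1 value lay inside the transduced range, and only replicate 2 stood above it. CEBPB and CEBPG, C/EBP family genes whose products pair with ATF4, were at 8.73 and 17.65 FPKM and at 4.53 and 8.52 FPKM in Parental replicates 1 and 2. DDIT3 was at 17.2 and 22.2 FPKM, a smaller difference, and ATF5, whose mRNA is also under translational control, was lower in replicate 2 (7.20 and 5.20 FPKM).

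Of the signalling and stress effectors, 3 of 4 were at least 2-fold higher in Parental replicate 2. CHAC1 was at 0.37 and 5.50 FPKM in Parental cells, 0.33 and 0.82 in WT dox-, 0.72 and 0.77 in WT dox+, 1.07 in S34F dox- and 0.56 and 1.34 in S34F dox+. CHAC1 was therefore at or below 1.34 FPKM in every library but Parental replicate 2. TRIB3, a pseudokinase that restrains ATF4 and AKT signalling, was at 5.81 and 14.1 FPKM in Parental cells, 7.19 and 7.21 in WT dox-, 5.56 and 5.42 in WT dox+, 7.39 in S34F dox- and 5.81 and 5.63 in S34F dox+. SESN2, a leucine sensor that restrains mTORC1, was at 1.21 and 5.22 FPKM in Parental cells, 1.54 and 2.05 in WT dox-, 1.35 and 1.37 in WT dox+, 1.30 in S34F dox- and 1.72 and 1.65 in S34F dox+. DDIT4 (REDD1), another restraint on mTORC1, was high in both Parental libraries (85.7 and 98.1 FPKM), above all 7 transduced values (27.2 to 69.7 FPKM).

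ASNS had the largest Parental difference of the members on the log2(FPKM + 1) scale, 2.43, exceeded by 0.244% of all genes. As a ratio of FPKM its difference was 5.92-fold, below the 14.9-fold of CHAC1. It was at 7.96 and 47.1 FPKM in Parental cells, 14.6 and 19.9 in WT dox-, 18.75 and 17.25 in WT dox+, 18.0 in S34F dox- and 20.5 and 19.99 in S34F dox+. The 7 transduced values of ASNS were close together and lay between the Parental ones. CTH, cystathionine gamma-lyase of the transsulfuration pathway, was at 8.76 and 19.9 FPKM in Parental cells, 6.86 and 12.5 in WT dox-, 10.97 and 10.02 in WT dox+, 11.2 in S34F dox- and 11.65 and 12.2 in S34F dox+. Its Parental replicate 1 value lay inside the transduced range. PCK2, the mitochondrial phosphoenolpyruvate carboxykinase, was at 11.6 and 21.2 FPKM, and PYCR1, which makes proline, at 28.7 and 50.2 FPKM.

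The 3 enzymes that make serine from 3-phosphoglycerate were each at least 2-fold higher in Parental replicate 2. PHGDH, the first of them, was at 2.62 and 7.72 FPKM in Parental cells, 2.72 and 2.78 in WT dox-, 1.27 and 0.98 in WT dox+, 2.32 in S34F dox- and 1.65 and 4.08 in S34F dox+. PSAT1 was at 13.5 and 36.9 FPKM in Parental cells, 20.9 and 22.7 in WT dox-, 17.7 and 21.75 in WT dox+, 21.2 in S34F dox- and 14.9 and 17.0 in S34F dox+. PSPH was at 8.96 and 20.5 FPKM in Parental cells, 15.3 and 16.8 in WT dox-, 15.97 and 12.9 in WT dox+, 12.05 in S34F dox- and 12.1 and 12.96 in S34F dox+. For PSAT1 and PSPH, but not PHGDH, the transduced libraries all lay between the Parental ones. The mitochondrial folate enzymes MTHFD2 (45.1 and 77.8 FPKM) and SHMT2 (67.45 and 98.3 FPKM) differed less, and ALDH1L2 was at or below 1.24 FPKM in every library.

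The transporters showed the same order. SLC7A5 (LAT1), the light chain of the leucine exchanger, was at 14.2 and 36.8 FPKM in Parental cells, 28.2 and 29.35 in WT dox-, 16.3 and 16.4 in WT dox+, 25.02 in S34F dox- and 12.5 and 18.6 in S34F dox+. Its heavy chain SLC3A2 was at 34.9 and 63.4 FPKM in Parental cells, enclosing 38.0 to 48.5 FPKM in the transduced libraries. SLC1A5 (ASCT2), a glutamine transporter, was at 49.65 and 108 FPKM in Parental cells, 58.7 and 60.9 in WT dox-, 51.9 and 50.85 in WT dox+, 61.5 in S34F dox- and 48.1 and 53.3 in S34F dox+. The cystine transporter SLC7A11 was at 4.17 and 8.85 FPKM in Parental cells, 3.90 and 4.25 in WT dox-, 5.48 and 5.71 in WT dox+, 3.59 in S34F dox- and 3.78 and 4.70 in S34F dox+. The cationic amino acid transporter SLC7A1 was at 13.4 and 18.8 FPKM, and SLC1A4 stayed below 1 FPKM in all libraries.

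All 10 tRNA charging and export genes were higher in Parental replicate 2, none by 2-fold on the log2(FPKM + 1) scale. The same direction held for all genes of each other role except the sensors and the transcription factors. Of the 10, 7 were lowest of the 9 libraries in Parental replicate 1. YARS (tyrosine) was at 26.7 and 53.5 FPKM, GARS (glycine) at 74.9 and 146 FPKM, MARS (methionine) at 41.3 and 77.9 FPKM and CARS (cysteine) at 21.95 and 39.4 FPKM. AARS, SARS, WARS, EPRS and NARS had log2 differences of 0.77, 0.57, 0.48, 0.39 and 0.21, and the tRNA exporter XPOT one of 0.63. Among the secreted and receptor genes, GDF15, a stress-induced cytokine of the TGF-beta family, was at 7.27 and 28.8 FPKM in Parental cells, 3.11 and 6.19 in WT dox-, 6.63 and 4.04 in WT dox+, 2.87 in S34F dox- and 7.42 and 3.91 in S34F dox+. STC2 was at 10.2 and 19.0 FPKM and the lipoprotein receptor VLDLR at 1.07 and 2.02 FPKM. In the transduced libraries VLDLR was at 1.97 and 1.26 FPKM in WT dox-, 1.42 and 1.71 in WT dox+, 1.86 in S34F dox- and 2.21 and 3.49 in S34F dox+.

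**Figure D2:**
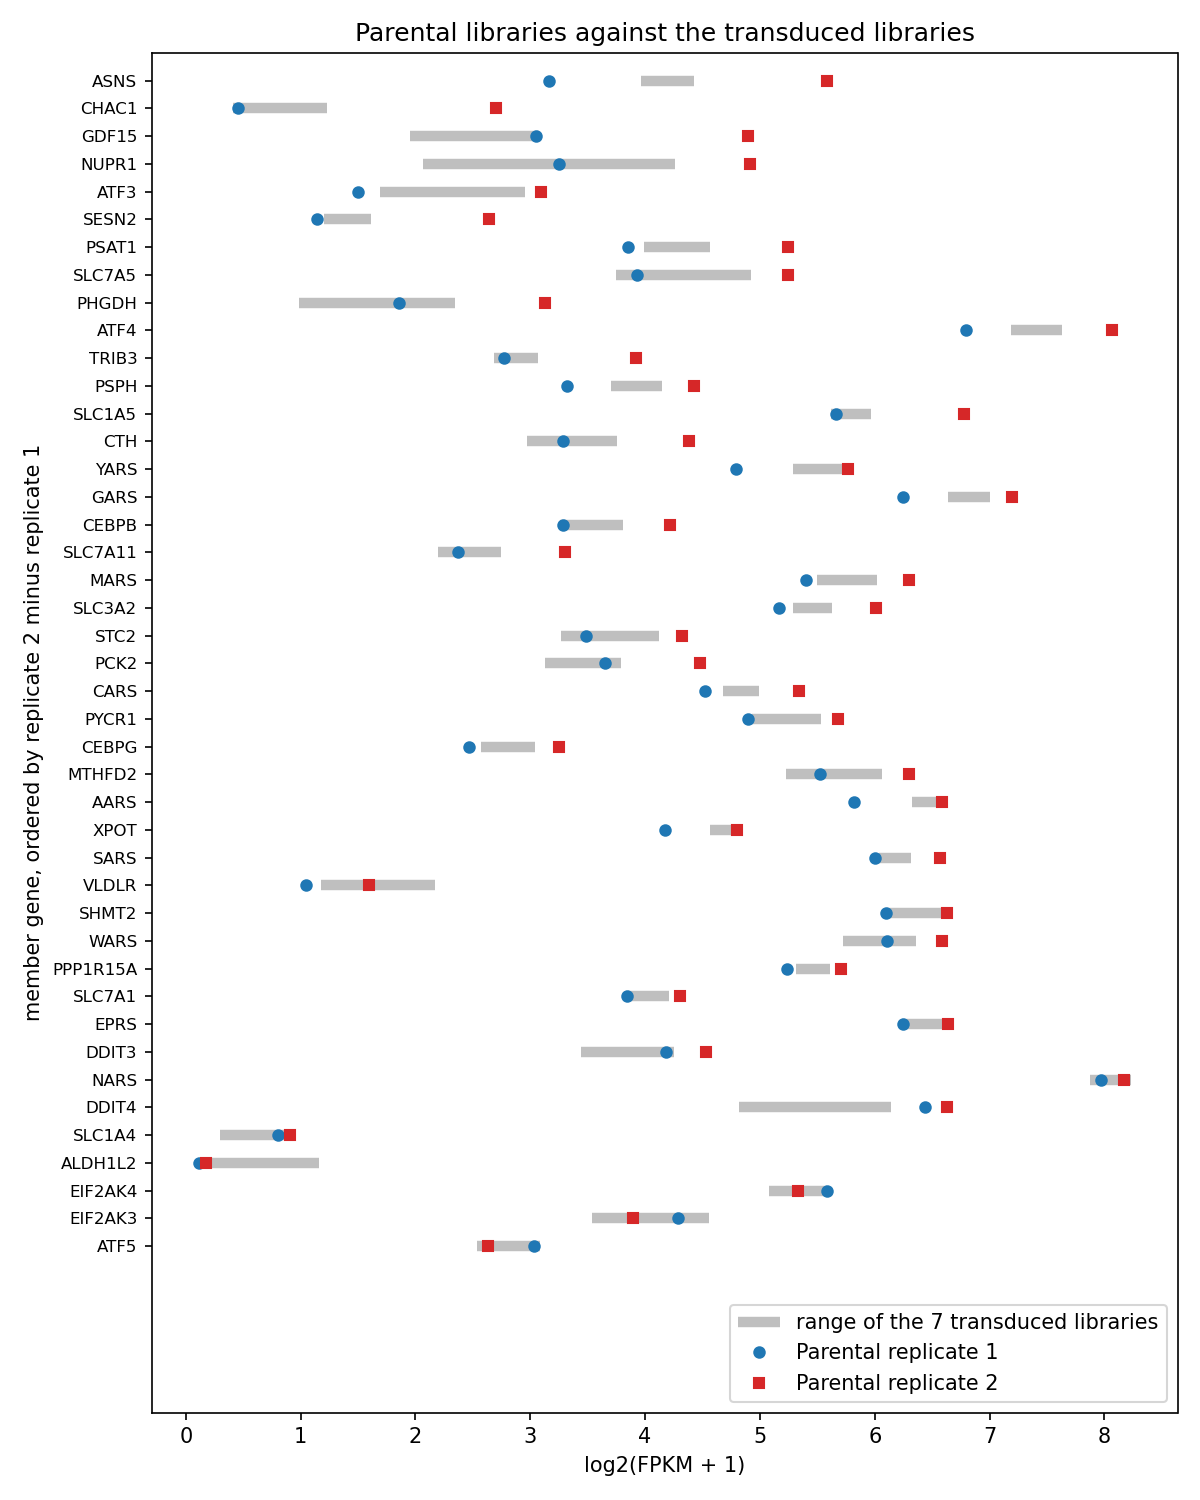
Level of each member as log2(FPKM + 1) in Parental replicate 1 (circles) and replicate 2 (squares), with the range of the 7 transduced libraries as a grey bar, ordered by the difference between the Parental libraries. The squares lie right of the bars for 31 members, and ASNS at the top has the widest gap, from 7.96 to 47.1 FPKM.

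Other gene lists gave a context for the same pair of Parental libraries. Because this contrast chose the members, a gap between them and genes left outside them is no test. The 11 cytosolic aminoacyl-tRNA synthetase genes outside the members had a median difference of -0.01, the 17 mitochondrial ones 0.07, and the 13 genes of eIF2 with its other kinases and regulators 0.08, with 0 genes of the 3 lists at 2-fold. Of the 11 cytosolic ones 4 were higher and 7 lower. Among them IARS (0.52) and TARS (0.49) exceeded the members WARS (0.48), EPRS (0.39) and NARS (0.21). The 16 genes of the XBP1 and ATF6 arm of the unfolded protein response had -0.08, the 8 NRF2 targets -0.27, the 10 p53 targets 0.07 and the 8 glucose and hypoxia responsive genes -0.02, again with 0 at 2-fold. The 17 other ATF4 targets had a median of 0.17, with 2 at least 2-fold higher and 8 highest of the 9 libraries in Parental replicate 2. The immediate early genes moved most, with a median of 1.205 and 7 of 10 at least 2-fold higher. FOS was at 5.85 and 34.4 FPKM in Parental cells, 2.45 and 18.6 in WT dox-, 9.43 and 6.53 in WT dox+, 14.8 in S34F dox- and 6.55 and 10.4 in S34F dox+. FOS was thus higher in replicate 2 of WT dox- and of S34F dox+ as well. In replicates 1 and 2 the 10 immediate early genes summed to 310 and 536 FPKM in WT dox-. Their sums were 311 and 329 FPKM in S34F dox+, and 293 and 284 FPKM in WT dox+. In the WT dox- pair 31 of 43 members were higher in replicate 2, beside 28 in S34F dox+ and 22 in WT dox+. The median member difference in WT dox- was 0.11, and that of all genes 0.005. All 9 mitochondrially encoded genes were higher in Parental replicate 2, by a median of 0.37. Of the lung adenocarcinoma markers, 4 of 5 were higher in replicate 2 (summed level 217 and 277 FPKM). Fibroblast markers (7 genes) summed to 8.34 and 4.64 FPKM, leukocyte markers (5) to 3.13 and 4.10 FPKM and endothelial markers (3) to 0.67 and 0.60 FPKM. Of the 5 leukocyte markers 3 were higher in Parental replicate 2 (CD79A, LYZ and CD14) and 2 lower, CD3E and PTPRC, which were at 0 there. The part of the immediate early and mitochondrially encoded genes in the member difference was not tested.

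**Figure D3:**
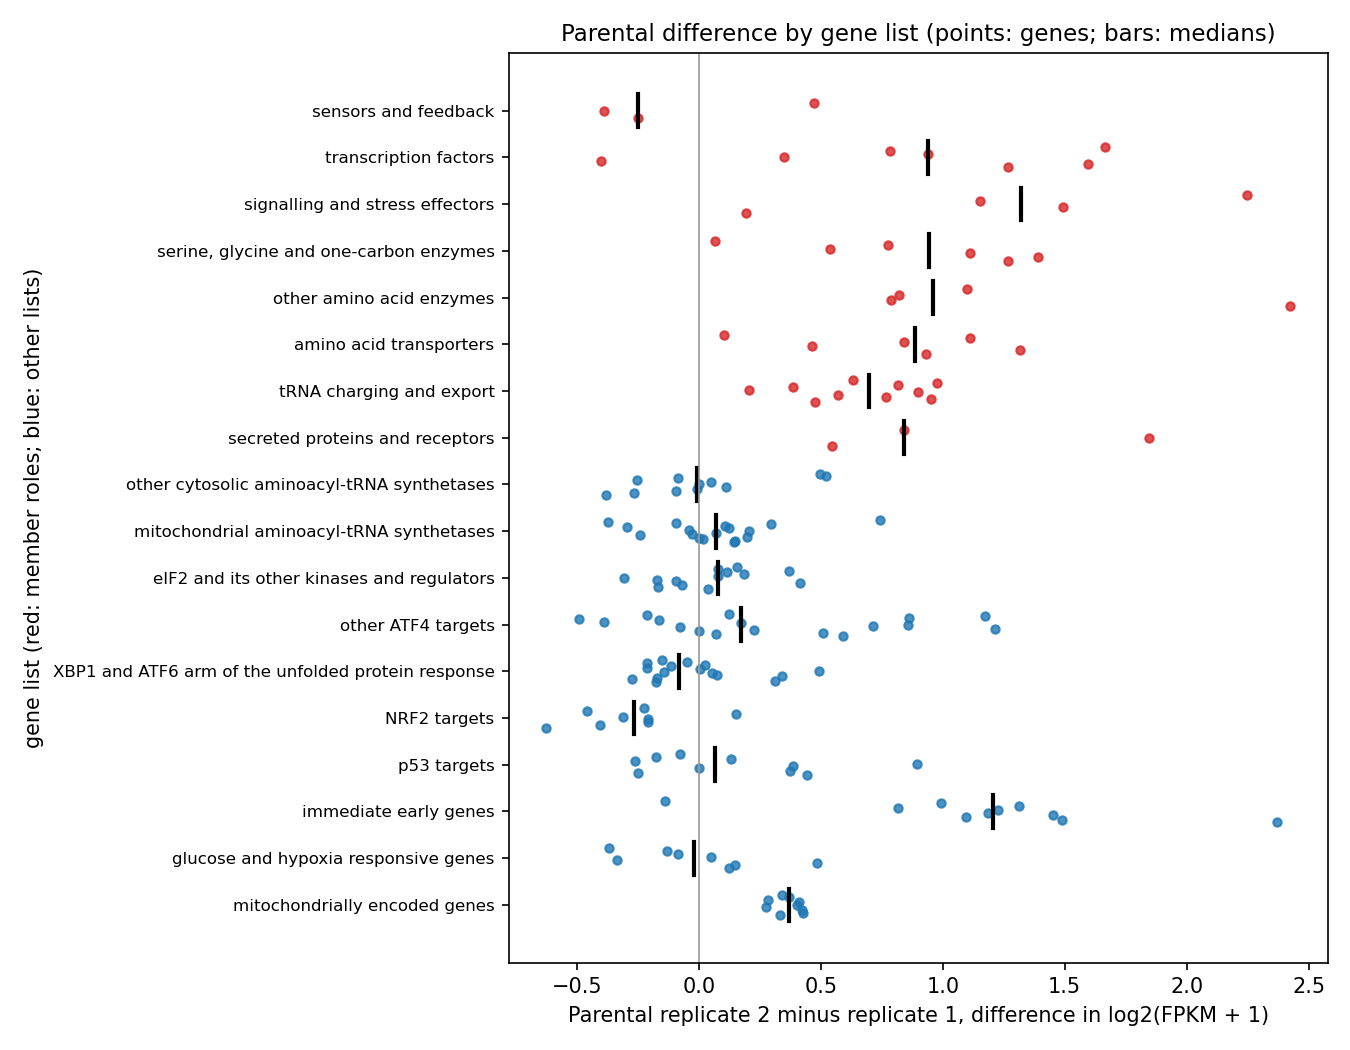
Parental replicate 2 minus replicate 1 for each gene (points) on the log2(FPKM + 1) scale, by list, with medians as black bars; the 8 member roles are red and 10 other lists blue. The roles other than sensors and feedback have medians of 0.70 to 1.32, and of the other lists the immediate early genes, with a median of 1.205, lie in that range.

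The transduced lines allow tests that did not use the Parental libraries. They were made with limma on log2(FPKM + 1) over the 15534 genes that averaged 1 FPKM or more across the 7 transduced libraries, two-sided, with Benjamini-Hochberg adjustment over all of them. Of the 43 members 40 were tested, since CHAC1, ALDH1L2 and SLC1A4 were below that mean. In bulk RNA, fewer cells with the program and less RNA per cell cannot be told apart.

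With doxycycline, the signalling gene DDIT4 was the 1 member of 40 to pass the test across both lines, and it was higher. DDIT4 was at 37.1 and 49.9 FPKM in WT dox-, 69.7 and 56.8 in WT dox+, 27.2 in S34F dox- and 62.7 and 60.6 in S34F dox+. All 4 dox+ values exceeded all 3 dox- values, although both were below the Parental ones. The log2 fold change was 0.84 ± 0.14 (SE; adjusted p = 0.0464, limma). The call was not stable: leaving out any 1 of the 6 libraries that could be left out gave log2 fold changes of 0.74 to 0.95, each with an adjusted p above the threshold of 0.05 (0.0819 without WT dox- replicate 2 to 0.244 without WT dox+ replicate 1). Over the whole table, 1.45% of genes passed.

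At an unadjusted p under 0.05, 12 of the 40 members differed with doxycycline, 5 higher and 7 lower, against 23.7% of all genes tested. The dox+ and dox- libraries did not overlap for 4 members that were higher (15.4% of all genes) and 11 that were lower (9.55% of all genes). The median member log2 fold change was -0.13 and that of all genes 0.09. The all-gene value moved with the genes entered: -0.01 after raising the minimum to 5 FPKM, 0.03 for protein-coding genes only and 0.16 with no minimum. Some of the other gene lists had lower medians than the members, such as other cytosolic synthetases (-0.23) and NRF2 targets (-0.35). Some had higher ones, such as other ATF4 targets (-0.09) and p53 targets (0.18). A lower median was thus not particular to the members. The dox+ libraries also held more genes at 1 FPKM (15736 to 20896, against 13661 to 14490 in the 3 dox- libraries), and leukocyte markers (5 genes) summed to 5.85 to 11.7 FPKM in them, above all 3 dox- libraries (from 3.34 FPKM). Of these markers CD79A (3.44 to 9.85 against 1.06 to 3.31 FPKM) and PTPRC (1.57 to 2.71 against 0.10 to 1.13 FPKM) were higher with doxycycline. For CD3E, LYZ and CD14 the dox+ and dox- libraries overlapped. The part of the gene number or of the leukocyte markers in these differences was not tested.

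The members that were lower with doxycycline included folate enzymes and transporters, none of which passed the adjusted test. SHMT2 was at 93.3 and 98.7 FPKM in WT dox-, 67.3 and 68.1 in WT dox+, 90.6 in S34F dox- and 69.8 and 72.0 in S34F dox+ (log2 fold change -0.42 ± 0.08, adjusted p = 0.063, limma). MTHFD2 was at 54.5 and 65.8 FPKM in WT dox-, 42.96 and 40.8 in WT dox+, 50.7 in S34F dox- and 36.7 and 36.5 in S34F dox+ (-0.48 ± 0.10, adjusted p = 0.0722, limma). SLC7A5, given library by library above, had -0.73 ± 0.15 (adjusted p = 0.0706, limma), and its Parental values were 14.2 FPKM, inside the dox+ range, and 36.8 FPKM, above all dox- values. STC2, a secreted glycoprotein, was at 14.3 and 16.4 FPKM in WT dox-, 9.97 and 10.7 in WT dox+, 14.98 in S34F dox- and 8.65 and 12.35 in S34F dox+. STC2 (-0.51), TRIB3 (-0.33), CEBPB (-0.31), SLC1A5 (-0.25), MARS (-0.24), GARS (-0.22), NARS (-0.18) and SARS (-0.12) also had separate dox+ and dox- libraries, with adjusted p-values from 0.128 to 0.475 (limma).

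NUPR1, ATF3 and DDIT3 had positive fold changes that did not pass the adjusted test either. NUPR1 had the largest fold change of the tested members, 1.25 ± 0.23 (adjusted p = 0.0592, limma), with dox+ libraries at 11.2 to 18.1 FPKM and dox- libraries at 3.19 to 6.56 FPKM. DDIT3 was at 9.84 and 14.7 FPKM in WT dox-, 17.5 and 16.3 in WT dox+, 10.6 in S34F dox- and 18.03 and 15.3 in S34F dox+ (0.53 ± 0.16, adjusted p = 0.134, limma), and ATF3 at 3.61 to 6.77 against 2.23 to 3.27 FPKM (0.52 ± 0.19, adjusted p = 0.168, limma). ATF4 (-0.14) and ASNS (0.11) had overlapping libraries and adjusted p-values of 0.462 and 0.63 (limma).

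**Figure D4:**
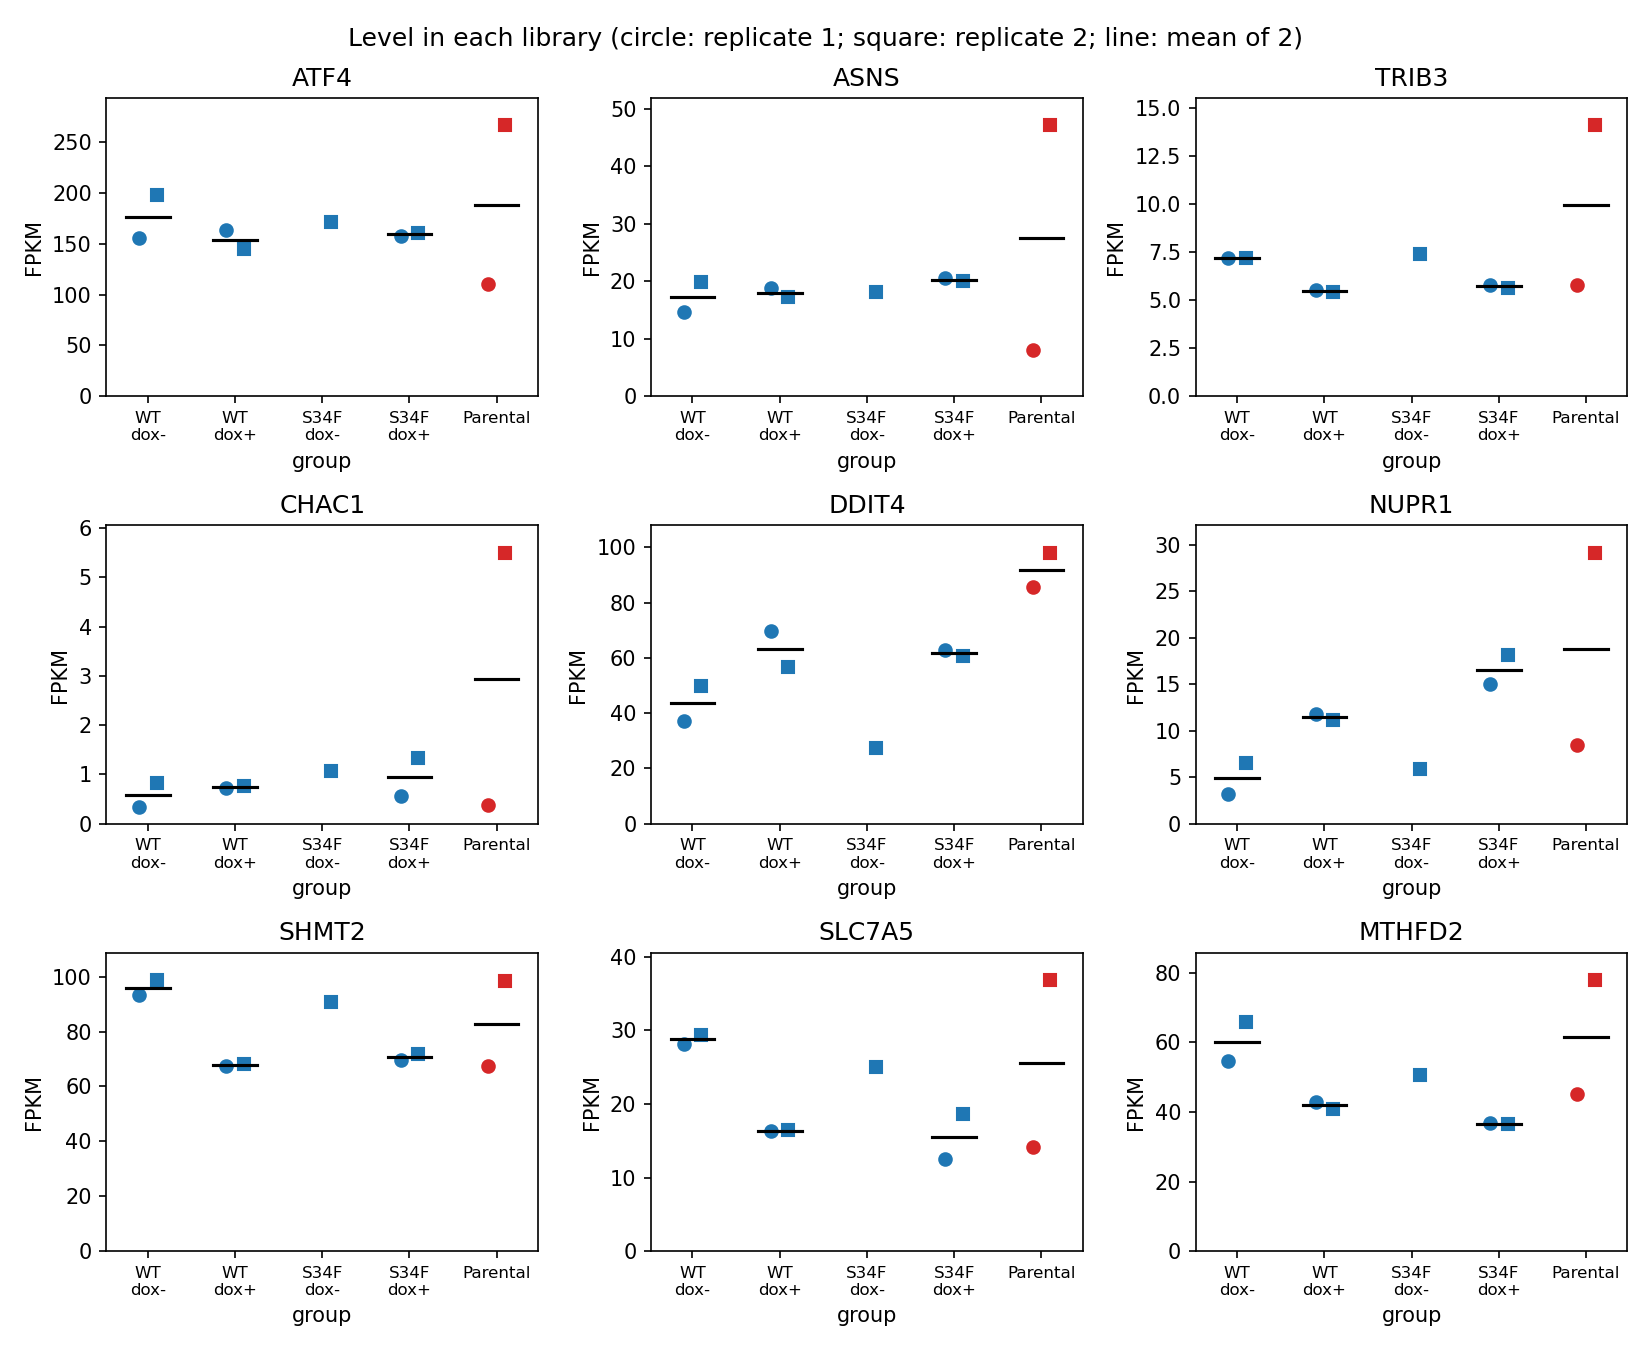
FPKM of 9 members in each library by group (circles, replicate 1; squares, replicate 2; lines, mean of 2 libraries; axes start at 0; Parental in red). For DDIT4 and NUPR1 the dox+ libraries lie above the dox- ones, for SHMT2, SLC7A5, MTHFD2 and TRIB3 below them, and the Parental libraries of ASNS, at 7.96 and 47.1 FPKM, lie on either side of all others.

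In the WT line alone no member passed the test (limma, 0 of 40; 6 at an unadjusted p under 0.05, of which 2 higher and 4 lower), where 0.0322% of all genes passed and 13.2% were under the unadjusted 0.05. Separate WT dox+ and WT dox- libraries were found for 5 members that were higher (29.2% of all genes) and 18 that were lower (20.4% of all genes). The 5 higher ones were NUPR1, DDIT4, DDIT3, SLC7A11 and ATF3, and the lowest fold changes were those of PHGDH (-0.82), SLC7A5 (-0.78), STC2 (-0.53), MTHFD2 (-0.51) and SHMT2 (-0.50). In the S34F line, with 1 library without doxycycline, the differences were -0.68 for SLC7A5, -0.49 for STC2, -0.46 for MTHFD2 and -0.35 for SHMT2, while PHGDH was 0.14 higher. Over the 40 tested members 23 were lower and 10 higher with doxycycline in both lines, and 7 differed in sign. Of all 15534 genes tested, 4326 were lower and 6813 higher in both lines.

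**Figure D5:**
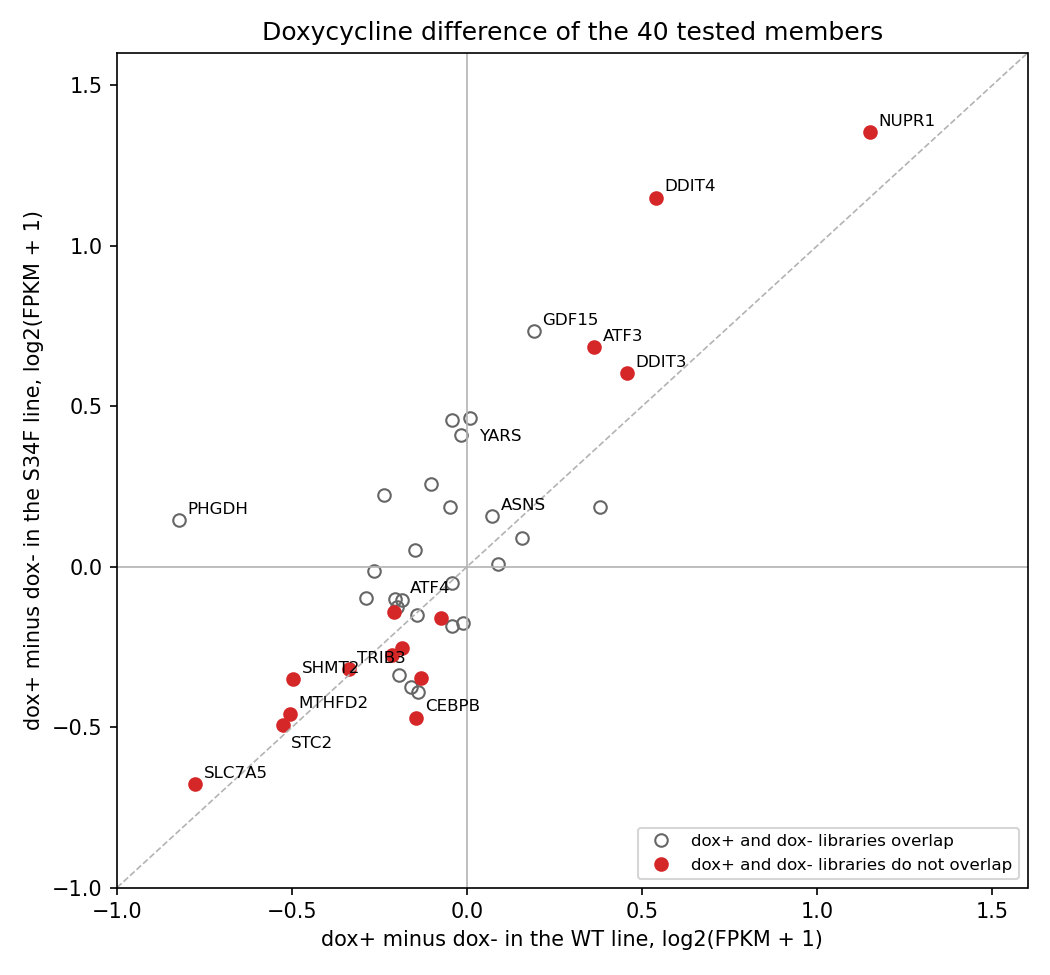
Difference between dox+ and dox- libraries in log2(FPKM + 1) for the 40 tested members, in the WT line (x axis, 2 against 2 libraries) and the S34F line (y axis, 2 against 1); filled points have dox+ and dox- libraries that do not overlap, and the dashed line marks equal differences. NUPR1, DDIT4, DDIT3 and ATF3 lie at the upper right and SLC7A5, STC2, MTHFD2 and SHMT2 at the lower left, with PHGDH at -0.82 in the WT line and 0.14 in the S34F line.

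The difference between the 2 lines in their response to doxycycline was tested as an interaction, and no member passed (limma, 0 of 40; 1 at an unadjusted p under 0.05), with 0.0257% and 3.21% of all genes at those thresholds. That member was YARS, with an interaction of 0.45 ± 0.18 (log2; adjusted p = 1.00, limma). It was at 44.1 and 41.1 FPKM in WT dox-, 42.8 and 42.9 in WT dox+, 38.1 in S34F dox- and 54.4 and 51.4 in S34F dox+.

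The mutant was compared with the wild-type construct under doxycycline, the comparison for which the lines had been made. No member passed (limma, 0 of 40; 3 at an unadjusted p under 0.05), as 0.0386% of all genes passed and 6.43% were under the unadjusted 0.05. The median member log2 fold change was 0.05, beside 0.03 over all genes. S34F dox+ and WT dox+ libraries did not overlap for 16 members that were higher with S34F (20.7% of all genes) and 4 that were lower (15.1% of all genes). The 3 members under the unadjusted 0.05 were PYCR1 (0.46 ± 0.13), YARS (0.30 ± 0.11) and WARS (-0.41 ± 0.15). PYCR1 was at 42.05 and 42.7 FPKM in S34F dox+ and 31.4 and 29.6 in WT dox+, and its dox- libraries were already apart in the same direction, at 45.4 FPKM in S34F dox- and 34.5 and 40.6 in WT dox-. WARS was at 68.7 and 52.0 FPKM in S34F dox+ and 78.9 and 80.2 in WT dox+, with 67.7 in S34F dox- and 79.4 and 81.0 in WT dox-. For PYCR1 and WARS the lines thus stood in the same order without doxycycline, which was not tested further. Of the members with separate libraries, PHGDH (0.79), VLDLR (0.57), ATF3 (0.55) and NUPR1 (0.49) had the largest other fold changes upward, and SLC7A11 (-0.34), PSAT1 (-0.29) and MTHFD2 (-0.19) downward, all with adjusted p-values above 0.05 (limma). ASNS (0.16), TRIB3 (0.05) and ATF4 (0.05) were close to 0. The replicates of PHGDH in S34F dox+ were 1.65 and 4.08 FPKM, the higher being in the library with the most genes at 1 FPKM, and its part in that fold change was not tested.

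The other gene lists were read from the same fits. With doxycycline across both lines, 0 of 13 tested other ATF4 targets, 0 of 11 other cytosolic and 0 of 17 mitochondrial synthetase genes, 0 of 13 genes of eIF2 and its regulators, 0 of 16 genes of the XBP1 and ATF6 arm, 0 of 8 NRF2 targets, 0 of 10 p53 targets, 0 of 6 glucose and hypoxia responsive genes and 0 of 9 mitochondrially encoded genes passed, while 1 of 10 immediate early genes did, downward. At an unadjusted p under 0.05 those counts were 3, 3, 1, 2, 6, 5, 1, 2 and 1, in the same order, and 2 for the immediate early genes (limma). Of these, 2 other ATF4 targets, 1 p53 target and 2 glucose and hypoxia responsive genes were higher, and the rest lower. The median log2 fold changes were -0.09, -0.23, -0.07, -0.23, -0.21, -0.35, 0.18, 0.06 and -0.20, in the same order. The immediate early genes had -0.40 and the members -0.13. Between S34F dox+ and WT dox+, 0 genes of any list passed.

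Splicing of the members between S34F and WT cells was read from the deposited MISO comparison, which is without replicates. It gives for each annotated event the percent spliced in (PSI, from 0 to 1), a Bayes factor and a read count. The same counts recur at separate events of a gene, such as 787 and 1441 reads in EIF2AK4. The read counts therefore do not measure the reads on a single exon or junction. The sides were read as S34F first, from the order of names. Across 8326 genes the ratio of reads between the sides and the ratio of FPKM between S34F dox+ and WT dox+ had a Spearman rho of 0.58, as a description. Events were counted as changed with a PSI difference of at least 0.10, a Bayes factor of at least 5 and at least 10 reads. Of 345 events in 36 members, 6 events (1.74%) in 4 members were changed, beside 1.18% of all 87763 events. The member events had higher median read counts (413 on the S34F and 598 on the WT side) than all events (223 and 320). The 2 shares therefore do not rest on like read counts. The 7 members with no listed event were EIF2AK3, SLC7A5, CHAC1, GDF15, PPP1R15A, CEBPB and CEBPG.

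The largest of these was a cassette exon of EIF2AK4, the GCN2 gene, which begins at position 40318178 of chromosome 15 (plus strand; GRCh37/hg19, the build of the processing notes). Its PSI was 0.10 in S34F and 0.80 in WT cells (Bayes factor 1.65e+09; 787 and 1441 reads), so the exon was included less often with S34F. The level of EIF2AK4 was 32.9 and 34.8 FPKM in S34F dox+ and 34.5 and 41.6 FPKM in WT dox+. ASNS had a cassette exon on chromosome 7 (minus strand; the junction to it runs from 97498491 to 97501663) with PSI 0.69 in S34F and 0.97 in WT cells (Bayes factor 10.7; 270 and 414 reads). PYCR1 had a cassette exon on chromosome 17 (minus strand; junction from 79892621 to 79892802) with PSI 0.48 and 0.90 (Bayes factor 10.2; 411 and 520 reads). By these entries all 3 cassette exons were included less in S34F cells. Another entry with the same PYCR1 junction but a different skipping junction had PSI 0.23 and 0.34 (Bayes factor 0.5). An ASNS entry with the same skipping junction but an inclusion junction from 97498417 had PSI 0.78 and 0.98 (Bayes factor 1.28). Both were lower in S34F cells but did not count as changed.

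MARS, the methionyl-tRNA synthetase gene, had 3 changed retained intron events on chromosome 12 (plus strand). The first spans 57883128 to 57883238, with PSI 0.22 in S34F and 0.72 in WT cells (Bayes factor 102; 47 and 78 reads). The second shares its start and ends at 57883207, with PSI 0.70 and 0.93 (Bayes factor 17.25; 422 and 600 reads), and the third spans 57909774 to 57910028, with PSI 0.89 and 0.70 (Bayes factor 6.84; 420 and 633 reads). The first 2 share a splice site and are not independent, and whether PSI counts the retained or the spliced form is not given in the sources used here, so no direction of retention is drawn. At a Bayes factor of at least 20, only the EIF2AK4 exon and the first MARS event remained. ATF4, TRIB3, DDIT3 and the remaining members with listed events had none that changed.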

How the data were processed

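RNA had been prepared with a stranded total RNA kit and sequenced from 9 HCC78 libraries. The authors deposited FPKM and TPM values for each gene in 1 table, which the processing notes tie to STAR 2.3.0, RSEM 1.2.29 and GRCh37/hg19; no read counts per gene were used, so the branch of the plan for counts was not taken and depth is unknown. The authors deposited MISO tables of splicing events holding PSI as a fraction, its difference as a signed score, the Bayes factor as a ratio, and the count of supporting reads; how replicates were combined is not given in the sources used here, and the highest Bayes factor was taken where an event listed several isoforms.

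FPKM values were analysed as log2(FPKM + 1). The main design was limma 3.58.1 with an intensity trend (R 4.3.3), no covariates, 4 groups and the 7 transduced libraries, over genes averaging 1 FPKM or more; Parental libraries were left out because they had chosen the members. Contrasts were S34F dox+ against WT dox+, dox+ against dox- in the WT line and averaged over both lines, and the interaction. An adjusted p under 0.05 was the threshold. Tested on simulated data of 15534 genes for the doxycycline comparison, 200 changed genes were recovered 0, 131 and 190 times at log2 fold changes of 0.5, 1 and 2. The changed genes were drawn only from those with a mean above about 5 FPKM. Recovery is therefore not described for members below that level, such as SESN2 and ATF3. The Parental contrast, the splicing events and the promoter letters carry no test.

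The members, their roles, the other gene lists and the comparisons were chosen with earlier results of these data known. All members are given; the library values are printed for ATF4, ASNS, TRIB3, CHAC1, for the 10 others with the largest Parental differences, and, for each comparison, for members that passed or had the largest fold changes among those with separate libraries. FOS was named after its values were seen. Promoters were matched through Ensembl identifiers and current or older symbols. The iCLIP samples were not analysed here.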

Additional observations from a re-analysis of the deposited data

Results flagged for a closer look

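SESN2, whose product senses leucine upstream of mTORC1, moved in opposite directions with doxycycline in every library of the lines. It was at 1.54 and 2.05 FPKM in WT dox- and 1.35 and 1.37 in WT dox+, and at 1.30 FPKM in S34F dox- and 1.72 and 1.65 in S34F dox+. The fitted interaction was 0.46 on the log2 scale (limma, adjusted p = 1.00), so the difference did not pass the test. All 7 values were within 1 FPKM of each other, below the 5.22 FPKM of Parental replicate 2, and the S34F side rests on 1 library without doxycycline.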

How the results depend on the processing

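The number of members that passed was 0 for S34F dox+ against WT dox+, for doxycycline in the WT line and for the interaction under every alternative run, leaving out each library included (0 to 0 members). For doxycycline across both lines it was 1, DDIT4, and 3 with a mean of at least 5 FPKM, 5 with protein-coding genes only and 0 with no minimum, with quantile normalization, with TPM or without the intensity trend. DDIT4 lost the call under 12 of 17 alternatives, median-ratio scaling among them, where the 1 member called was SHMT2. Leaving out 1 library gave 0 to 0 members, and 3 to 28 genes of all instead of 225. The cause was not tested. Fewer genes entered the fit with the higher minimum (10064) and with protein-coding genes only (12086), and the part of that was not tested either. Over the other alternatives all genes called ranged from 2 (no minimum) to 618 (protein-coding genes only). With the replicate number as a replicate block, 0 members and 38 genes passed; the 2 numbers share no stated culture or day, and deviations of same-numbered libraries correlated at -0.03 to 0.04. No named member with an unadjusted p under 0.05 changed direction under any alternative run. S34F dox- replicate 2 could not be left out of the comparison over both lines or of the interaction.

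Of the Parental values, 14 members were at least 2-fold higher, 14 to 16 with other pseudocounts, scalings, TPM or backgrounds, 28 at 1.5-fold (7.1% of all genes), 9 against the median of the other 8 libraries (1.48% of all genes) and 8 against that of the 7 transduced ones (1.55% of all genes), an alternative added after seeing the data. Of splicing events, 2 instead of 6 changed when the Bayes factor had to reach 20, and 5 to 6 under the other alternatives. Depth is not given with FPKM, 1 group has 1 library and the others 2, and the tests leave 3 residual degrees of freedom among libraries.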
